A study of Mus musculus with 33 samples.

Results

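Lin28a, Lin28b, Trim71, Hmga2, Igf2bp1, Igf2bp2 and Igf2bp3 are 7 genes known as regulators or targets of the let-7 microRNAs and as marks of early embryonic cells, and they were followed here through the labelled frontal bone region of the mouse embryo. The 7 were picked by name, with results of these data already known, as genes that fall over the course. All 7 were found by symbol in the table of 55401 genes, and all 7 were among the 20073 genes that passed the filter on low counts. Polyadenylated RNA had been sequenced from tissue labelled frontal bone of the calvaria in 3 libraries at each of 11 stages, every 0.5 day from E8.5 to E12.5 and then at E13.5 and E14.5 (E counts embryonic days). No strain, genotype, sex or treatment is given, and nothing says that libraries of the same stage are from different embryos, so p-values measure the spread between these libraries, which may be technical.

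The let-7 microRNAs bind matching sites in the 3′ untranslated regions (3′ UTRs) of mRNAs and lower their stability and translation. LIN28A and LIN28B are RNA-binding proteins that block the making of mature let-7, in part by binding a GGAG stretch in the loop of let-7 precursors and recruiting enzymes that add uridines, and their own mRNAs are let-7 targets, so each side represses the other. TRIM71 (the mouse counterpart of worm lin-41) is an RNA-binding ubiquitin ligase, HMGA2 an architectural chromatin protein, and IGF2BP1, IGF2BP2 and IGF2BP3 are paralogous proteins that bind mRNAs such as those of Igf2, Myc and Actb and affect their stability, place and translation. Most are best known from early embryos and from tumours in which they return.

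The sequences that link the genes are shown first. All 9 mature 5p sequences of the family in RefSeq (GRCm38.p6) shared the seed, bases 2 to 8, in capitals in 3 of them here.
mmu-let-7a-5p: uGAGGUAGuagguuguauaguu
mmu-let-7e-5p: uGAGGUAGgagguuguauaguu
mmu-miR-98-5p: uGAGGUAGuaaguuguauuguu

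Of the 12 hairpins of the family, 9 held GGAG after the 5p arm, and Mirlet7b, Mirlet7c-2 and Mir98 did not. The hairpin of let-7a-2 is printed with that stretch in capitals (GRCm38.p6, chr9:41536716-41536811, plus strand), since the transcript that spans it had the largest change among the tested let-7 hosts at E10.5 against E8.5.
Mirlet7a-2: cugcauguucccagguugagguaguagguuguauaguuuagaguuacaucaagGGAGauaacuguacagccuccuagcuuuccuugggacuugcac

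The 3′ UTRs of GENCODE M21 (GRCm38) were searched on the transcript strand for CTACCTC, the match to the seed, and for CTACCTCA, the match followed by A, which contains CTACCTC. All 7 genes held CTACCTCA at least once. Trim71 held it 4 times, Igf2bp1 3 times, Lin28a 2 times and the other 4 genes once each. Of the 15694 3′ UTRs of tested genes, 3.61% held CTACCTCA and 10.3% held CTACCTC. These 7 UTRs are long, from 1784 bases in Igf2bp2 to 6337 bases in Igf2bp1, and among UTRs between 0.8 and 1.25 times the length of each one, between 4.14% (for Igf2bp2) and 11.9% (for Igf2bp1) held CTACCTCA. Counting also TACCTCA, which overlaps CTACCTCA and was counted once, Hmga2 had 7 sites, Trim71 6, Lin28b and Igf2bp1 5 each, Lin28a and Igf2bp2 2 each and Igf2bp3 1. For Hmga2, 0.0963% of UTRs of like length had as many, and for Igf2bp3 23.9% had. One CTACCTCA of each gene is shown in capitals with the bases around it, all on the minus strand, so that a reader can see that the letters outside the match differ.
Lin28a, chr4:134005188-134005217: tggagtgcacagcctgttgaaCTACCTCAt
Lin28b, chr10:45381021-45381050: cccttcacccgggcgggaagtCTACCTCAt
Trim71, chr9:114512471-114512500: aagtacaacattgcctaagtcCTACCTCAg
Hmga2, chr10:120364223-120364252: gggggcgccgacattcaatttCTACCTCAg
Igf2bp1, chr11:95961777-95961806: ggcagtgctgtgcgaagtaaaCTACCTCAa
Igf2bp2, chr16:22059472-22059501: agaaaaacacacaaataaaagCTACCTCAg
Igf2bp3, chr6:49086786-49086815: taaacgtgcatttttactcaaCTACCTCAg

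A match is a description of the letters and no measure of binding. These genes were picked as known regulators or targets of let-7, so matches in all of them are no independent result. No mature microRNA was measured in these libraries.

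Column totals ran from 14516518 to 19964404 counts (median 17081223), and levels are given as TMM-scaled CPM, counts scaled to the library size. The order of the libraries did not follow the labels throughout. On the first principal component of all tested genes, E11.5 (mean 84.1) lay beyond E12 (22.1) and E12.5 (41.9), and E10 (-37.9) beyond E10.5 (-46.4). Ribosomal protein genes took 2.40% ± 0.0345 of counts in E11.5 libraries, 6.25% ± 2.12 in those of E12, 2.94% ± 0.103 in those of E12.5 and 4.32% ± 1.32 in those of E13.5 (SD, n = 3 each). Of 7 osteoblast markers, whose sum was 2418 to 2608 CPM at E14.5 and 61.6 to 68.3 CPM at E8.5, some were near 0 in the early libraries and others were not. Ibsp, a bone matrix protein, had 464 ± 13.6 CPM at E14.5 and 0.278 ± 0.182 CPM at E8.5, and was at 0 at E9 and E9.5. Its mean was 15.1 CPM at E11.5, then 0.0370 at E12 and then 0.204 at E12.5. Runx2, the osteoblast regulator, had 45.0 ± 3.06 CPM at E14.5 and 0.575 ± 0.117 CPM at E8.5. Sp7, which acts after it, had 38.1 and 2.81 CPM at these stages, Col1a1, a collagen, 1880 and 18.0 CPM, and Alpl, a phosphatase, 43.9 and 40.8 CPM. Bglap, a marker of mature osteoblasts, was near 0 at both, at 0.346 and 0.215 CPM. The sum of 9 neural progenitor markers was 246 to 261 CPM at E14.5 and 1895 to 1938 CPM at E10.5, so the tissue holds other cells than bone. In such mixed tissue, fewer cells that use a gene and less RNA per cell cannot be told apart.

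Lin28a had the steepest course. Its level was 960, 958 and 972 CPM in the 3 E8.5 libraries, 698, 695 and 703 at E9, and 411, 410 and 415 at E9.5. It was 61.5, 62.2 and 67.3 CPM at E10, 106, 98.1 and 97.3 at E10.5, and 4.77, 4.44 and 5.31 at E11. Each of these stages lay clear of the one before it, and E10.5 stood above E10 in all 3 libraries. From E11.5 on the level was between 0.123 and 3.50 CPM in every library, which was 28 counts over the 3 libraries at E11.5, 11 counts at E13.5 and 33 counts at E14.5. The E12 libraries, at 3.19, 3.39 and 3.50 CPM, were the highest of these late libraries and did not overlap those of E11.5, at 0.289, 0.705 and 0.473 CPM. As a description, since such a fall chose the genes, the E14.5 mean of 0.568 CPM was lower than the E8.5 mean of 963 CPM by a factor of 1697. Lin28a lies on chr4:134003330-134018841 (GRCm38, minus strand).

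Lin28b (chr10:45376620-45486395, minus strand), the paralog, held its level longer. It had 317, 313 and 345 CPM at E8.5, 290, 284 and 285 at E9, and 297, 296 and 261 at E9.5. The E9 libraries lay below all E8.5 libraries and overlapped those of E9.5. It then had 134, 122 and 133 CPM at E10, 141, 137 and 147 at E10.5, and 36.5, 36.9 and 39.0 at E11. The last mean was 6.49 ± 0.473 CPM at E14.5, with its lowest at E13.5 (4.61 CPM), both apart from the 21.8 ± 2.67 CPM of E12.5 (SD, n = 3 each). Its lowest stage, E13.5, still held 250 counts over the 3 libraries.

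Trim71 (chr9:114507133-114564369, minus strand) followed a course close to that of Lin28a. Its level was 276, 267 and 264 CPM at E8.5, 152, 155 and 160 at E9.5, and 42.1, 44.8 and 48.7 at E10. It was 57.0, 54.7 and 60.9 CPM at E10.5, 7.19, 8.15 and 8.68 at E11, and between 1.30 and 4.99 CPM in every later library. All 3 E10.5 libraries were above all 3 E10 libraries, and all 3 E11 libraries far below both.

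Hmga2 (chr10:120361275-120476469, minus strand) had its highest mean at E9, 596 ± 13.3 CPM, and was 554 ± 23.4 CPM at E8.5. It had 310, 310 and 325 CPM at E10.5 and 196, 167 and 188 at E11. At E11.5 it had 56.1, 52.3 and 51.8 CPM, its lowest mean, while at E12 it had 146, 133 and 200 and at E12.5 195, 214 and 178. All 3 E11.5 libraries lay below all libraries of E11 and of E12, and the E12.5 libraries overlapped those of E11. At E14.5 it had 66.9, 72.3 and 73.6 CPM, which did not overlap E12.5.

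The 3 Igf2bp genes kept clear levels to the end, and all 3 stood higher in every E9 library than in any E8.5 library, as Hmga2 did. Igf2bp1 (chr11:95957163-96005940) had 673, 696 and 712 CPM at E8.5, 338, 336 and 339 at E10, 460, 446 and 479 at E10.5, and 222, 220 and 219 at E11. It had 124, 129 and 127 CPM at E11.5, 181, 186 and 191 at E12.5 and, in the last stage, 89.4, 94.1 and 86.5. Each of these stages lay apart from the one named before it, with E10.5 above E10 and E12.5 above E11.5. Igf2bp2 (chr16:22059009-22163299) had 337 ± 9.35 CPM at E8.5, 238 ± 2.99 at E10.5, 147 ± 5.38 at E12.5 and finally 83.2 ± 5.44 CPM in E14.5 libraries, and Igf2bp3 (chr6:49085223-49214957) had 186 ± 5.97, 133 ± 1.69, 58.0 ± 6.67 and 39.0 ± 0.867 CPM at the same stages (SD, n = 3 each). At E12 and E13.5 the 3 libraries of a stage were far apart. Igf2bp3 ran from 35.1 to 62.1 CPM at E12 and from 29.1 to 53.0 CPM at E13.5, of which the first overlaps both neighbouring stages and the second E14.5 but not E12.5.

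**Figure D1:**
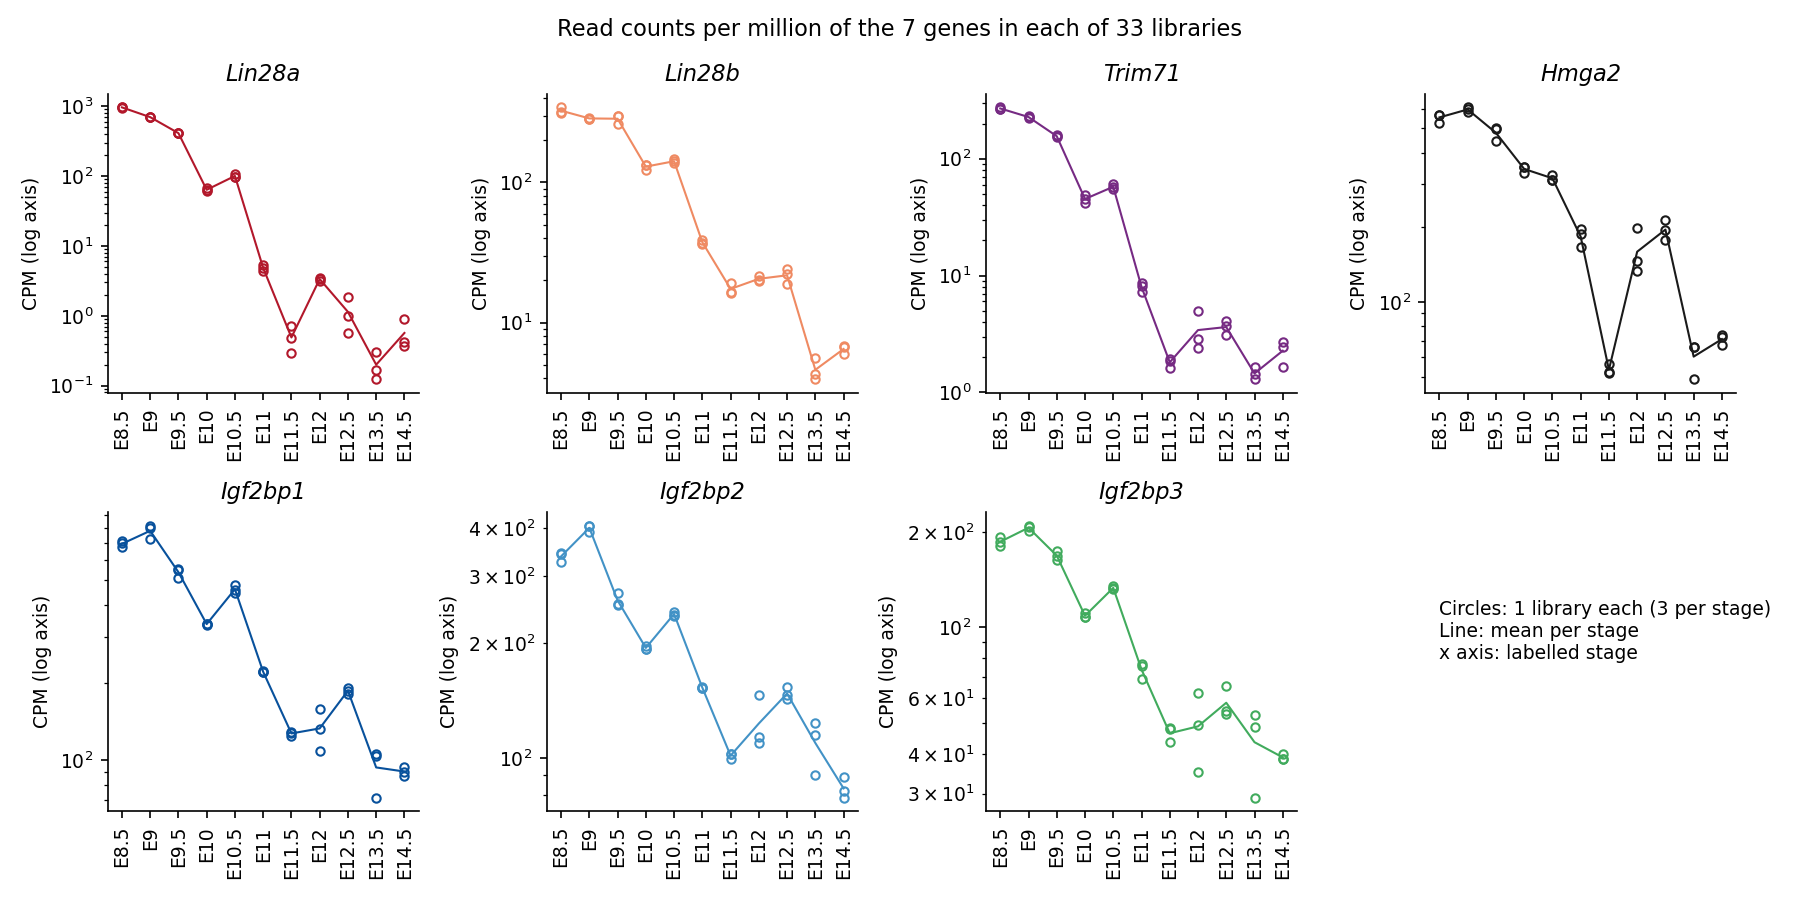
CPM on a log axis (each panel with its own range) against labelled stage for each gene, with 1 circle per library (3 per stage) and a line through the stage means. The 3 libraries of most stages lie close together, E10 lies below E10.5 in every gene except Hmga2, and Lin28a reaches 0.123 CPM while Igf2bp2 never goes below 78.7 CPM.

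Set by when the stage mean went below 0.5 of the E8.5 mean and stayed there, Lin28a came first at E9.5, Lin28b and Trim71 next at E10, and Hmga2, Igf2bp1, Igf2bp2 and Igf2bp3 last at E11. Igf2bp1 was already below 0.5 at E10, at 48.7% of its E8.5 mean, but stood at 66.6% at E10.5, which puts it at E11. Below 0.1 of the E8.5 mean for good, Lin28a and Trim71 arrived at E11 and Lin28b at E11.5, and the other 4 did not. By E10.5 the 7 genes had covered between 19.9% (Igf2bp1) and 32.5% (Trim71) of their log2 change to E14.5, and by E11 between 53.8% (Hmga2) and 73.9% (Trim71). The step between the labels E10.5 and E11 therefore held a large share of each log2 change. The mean of each gene but Hmga2 was higher at E10.5 than at E10, which adds to that share. On the first principal component of all tested genes, the stage mean went from -46.4 at E10.5 to 34.6 at E11. The times given above are descriptions with no test. For Lin28b and Trim71 the time below 0.5 is E10.5 when the E10 libraries are left out (an alternative chosen after seeing the data). With totals alone in place of TMM the time for Igf2bp2 is E13.5.

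**Figure D2:**
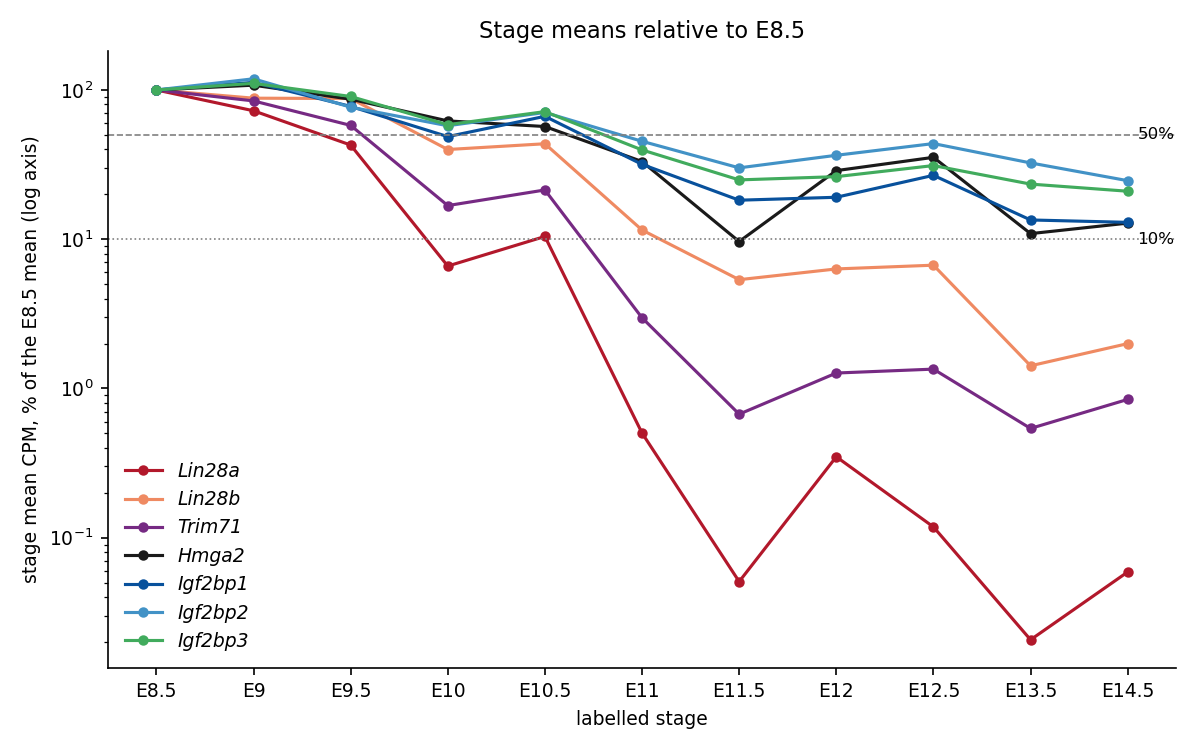
Stage mean CPM as a percentage of the E8.5 mean of the same gene, on a log axis, against labelled stage, with dashed and dotted lines at 50% and 10%. Lin28a, Trim71 and Lin28b separate downward from the other 4 genes by E10, and at E14.5 the Igf2bp and Hmga2 means stand between 12.8% and 24.7% of E8.5.

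The tests compared stages within 1 fit of all 33 libraries (edgeR's quasi-likelihood test, Benjamini-Hochberg adjusted over 20073 genes, threshold 0.05). At E10.5 all 7 genes were below their E8.5 level, where 21.3% of all tested genes were lower. All 7 were lower at E12.5 than at E10.5, where 17.2% of tested genes were. All 7 were lower at E14.5 than at E12.5, where 28.6% were, and all 7 at E13.5 than at E9, where 30.2% were. The median log2 fold change of the 7 was -0.81, -1.31, -1.0 and -3.30 in these 4 comparisons, against 0.09, 0.03, -0.03 and 0.08 over all tested genes. The comparisons with E8.5 and with E14.5 share libraries with the fall for which the genes were known. The comparisons of E12.5 with E10.5 and of E13.5 with E9 do not, but come from the same course, so none of these counts is independent evidence.

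From E8.5 to E10.5 the falls of Lin28a, Trim71 and Lin28b were the largest. Lin28a averaged 100 ± 4.80 CPM at E10.5 and 963 ± 7.45 CPM at E8.5 (SD, n = 3 each), a log2 fold change of -3.26 ± 0.13 (approximate SE) with an edgeR adjusted p of 2.21e-18. Trim71 changed by -2.23 ± 0.12 (edgeR adjusted p = 1.7e-15) and Lin28b by -1.20 ± 0.09 (edgeR adjusted p = 2.38e-12). Hmga2 changed by -0.81 ± 0.11, and Igf2bp1, Igf2bp2 and Igf2bp3 by -0.59, -0.50 and -0.48. The E10.5 libraries lay below all E8.5 libraries in each of the 7 genes. The call of Igf2bp3 was lost with totals alone (log2 -0.31, edgeR adjusted p = 0.14).

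Between E10.5 and E12.5 the falls of Lin28a, Trim71 and Lin28b were larger still. Lin28a averaged 1.14 ± 0.642 CPM at E12.5 and 100 ± 4.80 CPM at E10.5, a log2 fold change of -6.47 ± 0.18 (edgeR adjusted p = 6.61e-22), below 99.9% of tested genes. Trim71 changed by -3.98 ± 0.15 and Lin28b by -2.70 ± 0.10. Among the other genes Igf2bp1 changed by -1.31 ± 0.11 and Igf2bp3 by -1.20 ± 0.15, while Igf2bp2 and Hmga2 both changed by -0.69. No E12.5 library overlapped an E10.5 library in any of the 7 genes.

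From E12.5 to E14.5 the order was another one. Lin28b, at 6.49 CPM at E14.5 and 21.8 CPM at E12.5, changed by -1.75 ± 0.10 (edgeR adjusted p = 1.07e-14), and Hmga2 by -1.46 ± 0.11 (edgeR adjusted p = 3.7e-12). Igf2bp1 changed by -1.05, Igf2bp2 by -0.83, Trim71 by -0.67 and Igf2bp3 by -0.57. Lin28a, with 0.427, 0.909 and 0.366 CPM at E14.5 and 1.83, 0.571 and 1.01 CPM at E12.5, changed by -1.0 ± 0.31 (edgeR adjusted p = 0.00754), with groups that overlap and few counts. Its call was lost without library a of E12.5 (log2 -0.48, edgeR adjusted p = 0.292), without library c of E14.5 (-0.74, edgeR adjusted p = 0.0663) and with only the libraries compared (-0.95, edgeR adjusted p = 0.0872), so that 6 of the 7 genes then passed.

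Over the stages E9 and E13.5, Lin28a changed by -11.69, Trim71 by -7.28 and Lin28b by -5.95 on the log2 scale, and Hmga2, Igf2bp1, Igf2bp3 and Igf2bp2 by -3.30, -3.06, -2.24 and -1.87. The order of the 7 by size is the same as between E14.5 and E8.5, where the log2 fold changes, given without a test, were -10.74, -6.87, -5.65, -2.96, -2.95, -2.25 and -2.02. For Lin28a the size rests on few late counts.

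Step by step, 4 steps held falls of all 7 genes in the edgeR fit. These were E10 against E9.5 (12.3% of tested genes lower), E11 against E10.5 (17.3% lower), E11.5 against E11 (12.3% lower) and E13.5 against E12.5 (25.9% lower). The largest step of Lin28a was E11 against E10.5, at -4.37 (4.84 ± 0.442 CPM at E11 and 100 ± 4.80 CPM at E10.5), and that of Trim71 was the same step, at -2.84. Lin28b had 2 large steps, -1.92 at E11 against E10.5 and -2.23 at E13.5 against E12.5, and Hmga2 had -1.78 at E11.5 against E11 and -1.70 at E13.5 against E12.5. In the step to E13.5 the call of Igf2bp3 (-0.41) was lost without library b of E12.5 (-0.31), without library c of E13.5 (-0.19) and with totals alone (edgeR adjusted p = 0.0514), and 6 of 7 then passed.

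At E9 against E8.5 Lin28a was already lower, at -0.46 (edgeR adjusted p = 0.00654), Igf2bp2 was higher at 0.25 (edgeR adjusted p = 0.0478), and the other 5 did not pass. Of all tested genes, 20.2% passed in either direction in that step. The call of Igf2bp2 was lost in most alternatives, among them every other scaling and the replicate block. At E9.5 against E9, Lin28a, Hmga2, Igf2bp1, Igf2bp2 and Trim71 were lower (11.7% of tested genes were), by -0.31 in Hmga2, whose call was lost without any single library of E9 or E9.5 (edgeR adjusted p between 0.0591 and 0.151), to -0.76 in Lin28a. Lin28b and Igf2bp3 did not pass there, at -0.01 and -0.29.

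The steps between E10 and E10.5 and around E12 ran against the course. At E10.5 against E10, Lin28a was higher at 0.66, Igf2bp1 at 0.45 and Igf2bp2 at 0.30 (5.73% of tested genes were higher). The call of Igf2bp2 was lost without any 1 of the 6 libraries compared (edgeR adjusted p between 0.078 and 0.113), and both Igf2bp calls were lost with totals alone. At E12 against E11.5, Lin28a was higher at 2.74, Hmga2 at 1.58, Trim71 at 0.96, Igf2bp2 at 0.28 and Lin28b at 0.24, in a step where 33.3% of tested genes were higher. There the Trim71 call was lost without library c of E12 (0.45, edgeR adjusted p = 0.0692). The calls of Lin28b and Igf2bp2 were lost with DESeq2's size factors, with DESeq2 itself and with either other filter, and both changed sign with totals alone, to -0.14 and -0.08. The Lin28b call was also lost without library a of E8.5, b or c of E11.5, or any of E12, and that of Igf2bp2 without library a of E8.5 or c of E12 (0.058). Igf2bp1 and Igf2bp3, at 0.07 and 0.08, did not pass, and their sign turned in most other scalings and filters. With the gene length trend removed both passed as higher, at 0.64 (edgeR adjusted p = 7.32e-10) and 0.52 (edgeR adjusted p = 5.37e-05). With totals alone Igf2bp1 passed as lower instead, at -0.30 (edgeR adjusted p = 0.0396), and Igf2bp3 did not pass, at -0.28 (edgeR adjusted p = 0.165). At E12.5 against E12, Lin28a was lower at -1.58, and Igf2bp1, Hmga2 and Igf2bp2 were higher at 0.49, 0.29 and 0.26, 4 of 7 in a step in which 63% of tested genes passed in either direction. These 3 rises changed sign when a trend of counts on gene length was removed from each library. The Hmga2 call was also lost without library a or b of E12 or b of E12.5, and that of Igf2bp2 without library a or b of E12 or c of E12.5. At E14.5 against E13.5, Igf2bp2 was lower at -0.40, and Lin28a, Trim71 and Lin28b were higher at 1.41, 0.65 and 0.48, 4 of 7 where 50.9% of tested genes passed. Of these, Lin28a was lost without library c of E13.5 or library b of E14.5, Trim71 without library c of either stage, and Igf2bp2 with totals alone.

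**Figure D3:**
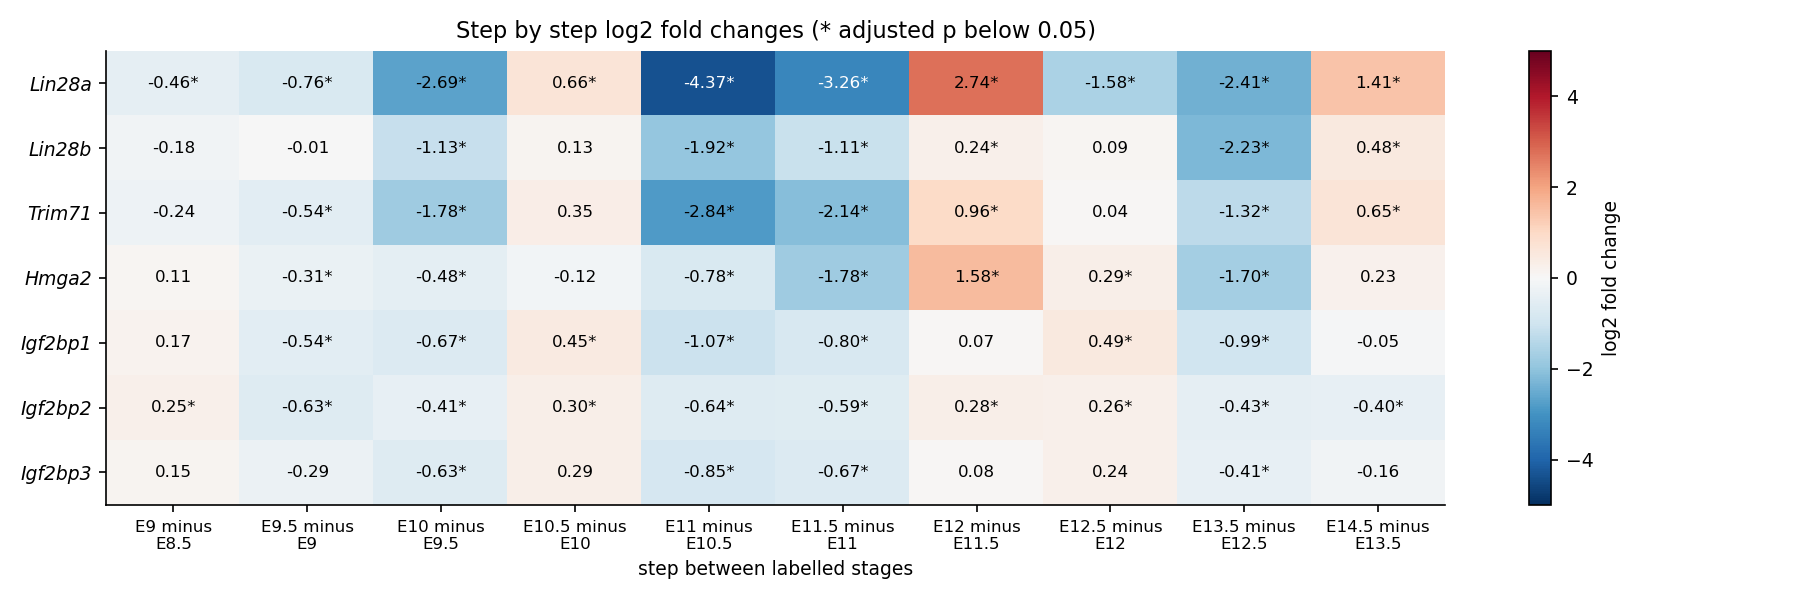
Log2 fold change of each gene (rows) in each step between neighbouring stages (columns, later minus earlier), with colour and printed value, an asterisk where the edgeR adjusted p was below 0.05. Blue columns with 7 asterisks are E10 minus E9.5, E11 minus E10.5, E11.5 minus E11 and E13.5 minus E12.5, and the strongest cell is Lin28a at E11 minus E10.5, at -4.37.

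With the stages in doubt passed over, E12.5 against E11 gave calls in 3 genes. Lin28a was lower by -2.10, Trim71 by -1.14 and Lin28b by -0.78, where 6.94% of tested genes were lower. The other 4 did not pass, with log2 fold changes between -0.35 (Igf2bp3) and 0.09 (Hmga2). With libraries labelled E11.5, E12 or E13.5 left out of the fit, Igf2bp3 (-0.34, edgeR adjusted p = 1.76e-05) and Igf2bp1 (-0.24, edgeR adjusted p = 0.000117) passed as lower too.

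Some marker sums moved with the genes. The sum of 6 proliferation markers was 3521 to 3645 CPM at E10.5, 2570 to 2679 at E11, 1724 to 1773 at E11.5, 2040 to 2452 at E12, 2627 to 2774 at E12.5 and, in the last stage, 1277 to 1351. This sum was lower at E11.5 than at E11 and E12.5, as the means of all 7 genes were. Its range at E8.5, 3457 to 3543 CPM, overlapped that at E10.5, but its members went both ways. Mki67 had 946 ± 64.2 CPM at E10.5 and 539 ± 42.9 CPM at E8.5, and Top2a 995 and 867 CPM. Mcm2 had 499 CPM at E10.5 and 598 CPM at E8.5, Mcm7 568 and 786, Rrm2 414 and 489, and Plk1 169 and 212, lower at E10.5 as the 7 genes were. The sum of 7 pluripotent and germ cell markers was 125.2 to 136 CPM at E8.5, 62.0 to 65.0 at E10.5, 9.44 to 10.6 at E12.5 and, in the last stage, 3.47 to 4.57, of which Sall4 made up nearly the whole at E8.5 (128 ± 5.13 CPM). The defining members of this list were near 0. Pou5f1 had 0.305 CPM and Nanog 0.204 CPM at E8.5, and Dppa3 and Dppa5a were at 0 there. Pou5f1 was at 0 at E10.5 and E14.5. Other members did not fall. L1td1 had 3.02 CPM at E14.5 and 1.88 CPM at E8.5, and Nanog and Dppa5a had 0.282 and 0.387 CPM at E14.5. Sall4 had 0.170 CPM at E14.5, where L1td1 made up most of the sum, so the fall of the sum was that of Sall4. Markers of other cells moved at the same steps. The sum of 5 neuron markers was 2506 to 2542 CPM at E11 and 1170 to 1204 CPM at E10.5, the largest step of Lin28a and Trim71. At E13.5 the sum of 6 epidermis markers was 819 to 1088 CPM, against 108 to 122 CPM at E12.5, that of the osteoblast markers 1724 to 1756 CPM, against 268 to 326 CPM, and that of 3 muscle markers 97.2 to 121 CPM, against 11.9 to 15.5 CPM. Col1a1 made up most of the osteoblast sum, at 1596 CPM at E13.5 and 263 CPM at E12.5. Ibsp, Alpl, Spp1 and Sp7 also had higher means at E13.5. Runx2 had 16.4 CPM there and 15.4 CPM at E12.5, and Bglap 0.273 and 0.474 CPM. The part of all these marker sums in the results was not tested. The red cell sum was 1424 to 1507 CPM at E11.5, then 9559 to 24983 at E12 and then 3277 to 3736 at E12.5, and its part in the E12 steps was not tested.

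Paralogs were compared on CPM per kilobase of the exonic length in the deposited table. The ratio of Lin28a to Lin28b was 6.73 ± 0.295 at E8.5, 5.54 ± 0.0712 at E9, 3.29 ± 0.265 at E9.5, 1.11 ± 0.064 at E10 and 1.61 ± 0.0977 at E10.5. It was 0.293 ± 0.0184 at E11, and from E11.5 on it was between 0.0342 and 0.399 in every library (SD, n = 3 each). By this measure Lin28a was the higher of the pair in all 15 libraries up to E10.5, and Lin28b in all 18 later ones. In CPM without lengths, Lin28b already had the higher mean at E10 (130 CPM against 63.6 CPM) and at E10.5 (142 CPM against 100 CPM). Summed per kilobase, the Igf2bp genes went from 140 ± 3.76 CPM at E8.5 through 96.2 ± 1.60 at E10.5 and 46.2 ± 1.35 at E12.5 to 25.3 ± 1.18 at E14.5. Igf2bp1 made up 51.2% ± 0.379 of that sum at E8.5, 49.6% ± 0.980 at E10.5, 41.5% ± 0.576 at E12.5 and in the end, at E14.5, 36.7% ± 0.740. Igf2bp2 made up 32.5% ± 0.0351, 33.5% ± 0.835, 43.1% ± 1.05 and 44.4% ± 1.03 at those stages, so it passed Igf2bp1 after E11, and Igf2bp3 stayed between 12.9% and 19.2% in every library. Within each stage the shares of Igf2bp1 and Igf2bp2 did not overlap, except that at E12.5 they nearly met, with a highest Igf2bp1 share of 41.97% and a lowest Igf2bp2 share of 41.99%.

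**Figure D4:**
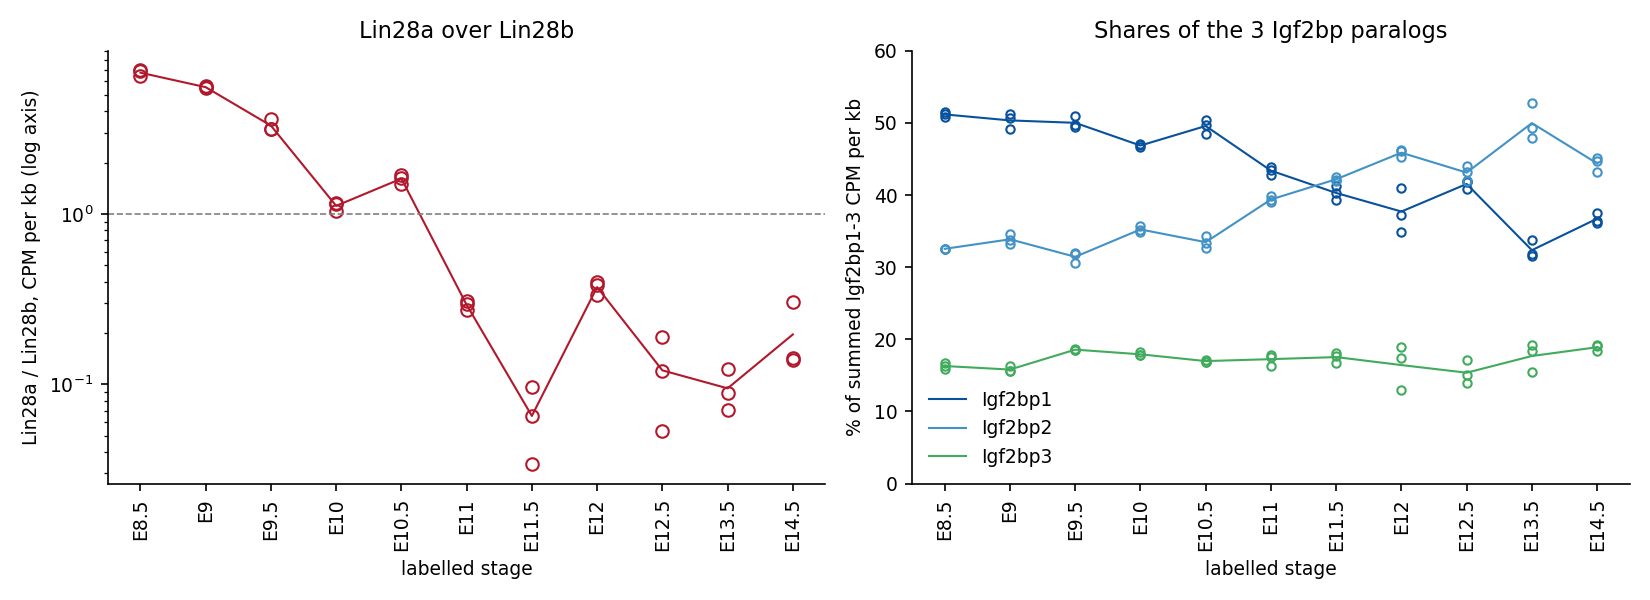
Left, the ratio of Lin28a to Lin28b in CPM per kilobase on a log axis, and right, the percentage of the summed Igf2bp CPM per kilobase in each paralog, both against labelled stage with 1 circle per library and a line through the stage means. The ratio crosses 1 between E10.5 and E11, and the Igf2bp1 and Igf2bp2 lines cross between E11 and E11.5.

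Per kilobase, the order of the 7 levels at E8.5 was Lin28a (241 ± 1.86 CPM per kilobase), Hmga2 (81.8 ± 3.45), Igf2bp1 (71.7 ± 2.04), Igf2bp2 (45.6 ± 1.26), Lin28b (35.9 ± 1.89), Trim71 (28.8 ± 0.696) and Igf2bp3 (22.8 ± 0.732). At E14.5 it was Igf2bp2 (11.2 ± 0.735), Hmga2 (10.48 ± 0.527), Igf2bp1 (9.29 ± 0.392), Igf2bp3 (4.78 ± 0.106), Lin28b (0.716 ± 0.0522), Trim71 (0.243 ± 0.0585) and Lin28a (0.142 ± 0.0745). At E14.5 Igf2bp2 and Hmga2, and Trim71 and Lin28a, lay within the sum of their SDs. Lin28a thus was the highest of the 7 at E8.5 and the lowest at E14.5.

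Whether Lin28a changed by another amount than each other gene was asked within libraries, by the log2 ratio of the 2 genes. The scaling of libraries enters this ratio only through the prior count of 2, which weighs most where counts are few, as for Lin28a at E12.5. The log2 ratio of Lin28a to Trim71 averaged 0.80 ± 0.11 at E10.5 and 1.84 ± 0.04 at E8.5 (SD, n = 3 each), a difference of -1.04, the smallest of the 6 pairs. The largest in that window was to Igf2bp3, at -2.78. Between E12.5 and E10.5 the differences ran from -2.50 (Trim71) to -5.77 (Hmga2). The ratios of the 2 stages overlapped in none of the 12 comparisons, and each exact two-sided permutation p was 0.1, the smallest that 3 against 3 libraries allow, and 0.1 after adjustment over the 12.

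Reads of genes that overlap the exons could be counted for either gene, as the strand setting of the counting is not given in the sources used here. Such genes were Gm13061 at Lin28a, 1700006J14Rik at Hmga2, Gm29202 and Mir3063 at Igf2bp1, Malsu1 at Igf2bp3 and C130032M10Rik at Trim71, all on the plus strand but Mir3063. The highest of them was Malsu1, a mitochondrial ribosome assembly factor, at 15.2 CPM at E14.5 and 23.1 CPM at E8.5. The others were at 2.10 CPM or less in both of these stages.

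Transcripts that host let-7 hairpins could be seen in polyadenylated RNA, but their levels are no measure of mature let-7. The hairpin genes themselves had between 0 and 24 counts over all 33 libraries, with Mirlet7d, Mirlet7i, Mirlet7e, Mirlet7a-1, Mirlet7c-2, Mirlet7f-1, Mirlet7f-2 and Mirlet7b at 0. Of 16 host and hairpin entries listed, 5 passed the filter on low counts. At E10.5 against E8.5, 2 were higher and 0 lower (28.2% of tested genes were higher), at E12.5 against E10.5 2 were higher and 0 lower (18.8% higher), and at E14.5 against E12.5 1 was higher (25.3% higher) and 2 were lower.

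Mir100hg (3110039I08Rik in the annotation, matched by its RefSeq synonym), which spans let-7a-2, had 5.52 ± 0.998 CPM at E8.5, 26.8 ± 0.161 at E9, 55.4 ± 1.98 at E9.5, 222 ± 15.6 at E10 and 158 ± 10.4 at E10.5. It had 528 ± 20.3 CPM at E11, 570 ± 22.7 at E11.5, 231 ± 28.1 at E12, 548 ± 51.5 at E12.5, 202 ± 46.4 at E13.5 and 571 ± 36.6 at E14.5 (SD, n = 3 each). The log2 fold change of 3110039I08Rik was 4.84 ± 0.15 at E10.5 against E8.5 (edgeR adjusted p = 3.01e-21) and 1.80 ± 0.12 at E12.5 against E10.5 (edgeR adjusted p = 3.23e-13). Its mean was 222 CPM at E10 and 158 CPM at E10.5, a step not tested for it. Mir99ahg, which spans let-7c-1, had 7.66 ± 0.481 CPM at E10.5 and 0.688 ± 0.214 CPM at E8.5, a log2 fold change of 3.44 ± 0.28 (edgeR adjusted p = 2.16e-11), and passed in neither later window. Lncppara (the RefSeq synonym of Mirlet7bhg), which spans let-7b and let-7c-2, had 0 counts at E8.5 and at E9, 1 count at E10.5, 29 counts at E12.5 and 76 in the last stage. It passed as higher at E12.5 against E10.5 (edgeR adjusted p = 0.000181) and at E14.5 against E12.5 (edgeR adjusted p = 0.021).

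Not every host rose. Huwe1, a ubiquitin ligase gene that spans let-7f-2 and miR-98, had 911 ± 60.3 CPM at E10.5 and 845 ± 58.4 CPM at E8.5, which did not pass, and was lower at E14.5 than at E12.5 by -0.68 (edgeR adjusted p = 0.0161). At E12 it had 214 ± 113 CPM, with libraries far apart. Wdr82, which spans let-7g, did not pass before the last window, where it was lower by -0.56. Hosts found by position, outside the list, were added after it was set. Of these Spaca6, which spans let-7e, had 88.0 ± 4.55 CPM at E10.5 and 6.05 ± 0.455 CPM at E8.5, a log2 fold change of 3.86 ± 0.15 (edgeR adjusted p = 9.43e-19). At E12 and E13.5 Spaca6 had 28.6 ± 6.86 and 27.6 ± 6.67 CPM, low beside its neighbours as Mir100hg was, and Spaca6 was lower at E13.5 than at E9 by -0.32 (edgeR adjusted p = 0.0327). D630033A02Rik, which spans let-7i, and 6720427I07Rik, which spans let-7d, let-7f-1 and let-7a-1, were higher at E10.5 against E8.5 by 1.24 and 1.27. Their levels were low, at 1.40 and 2.24 CPM at E8.5 and 3.29 and 5.36 CPM at E10.5. Both means were higher at E9, at 4.13 and 9.07 CPM, and neither passed at E13.5 against E9. D630033A02Rik was then lower at E12.5 against E10.5 by -1.36 and higher at E14.5 against E12.5 by 1.39, while 6720427I07Rik passed in neither later window. Gm49317, also over let-7a-2, had 20 counts or fewer in every stage.

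**Figure D5:**
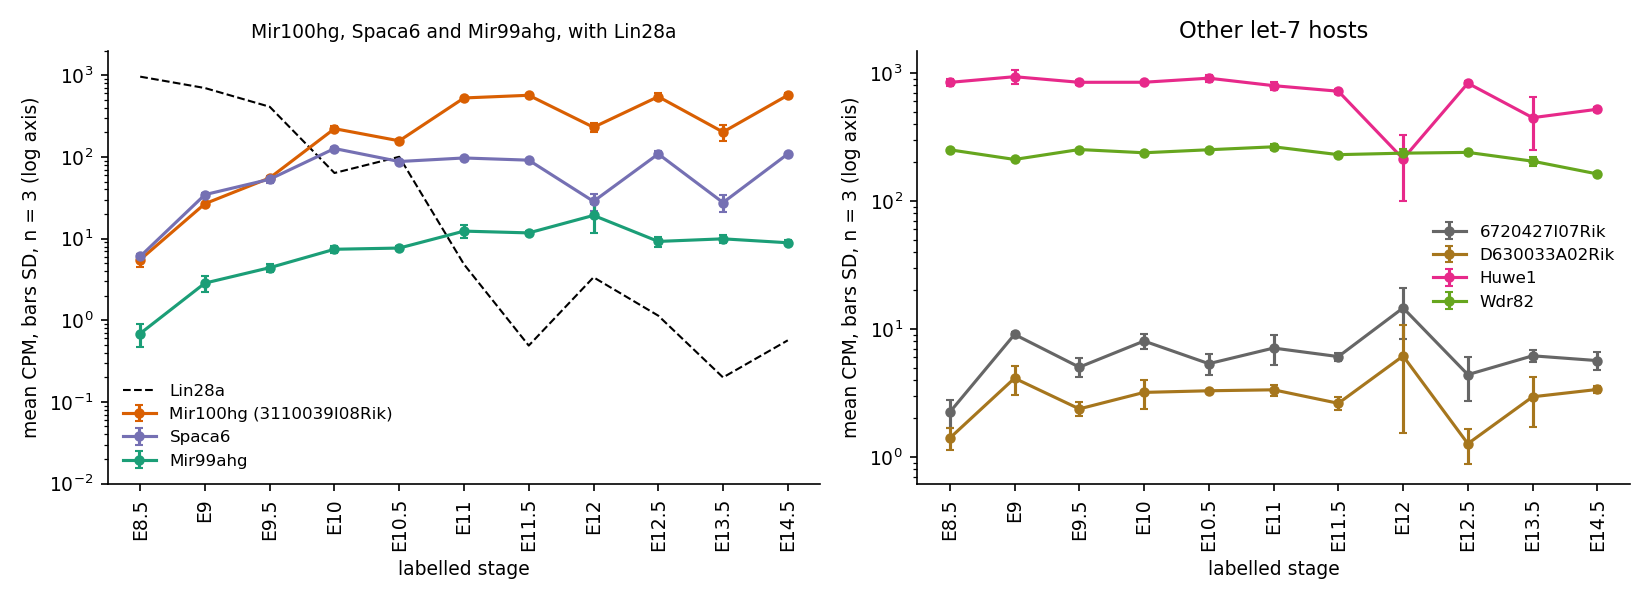
Mean CPM on a log axis with SD bars (n = 3) of transcripts that span let-7 hairpins, against labelled stage, with the Lin28a mean as a dashed line on the left. Mir100hg, Spaca6 and Mir99ahg go up between E8.5 and E10, where Lin28a goes down, and Mir100hg and Lin28a cross between E9.5 and E10. At E12 and E13.5 Mir100hg and Spaca6 are low beside their neighbours, while Huwe1 and Wdr82 stay near their E8.5 level up to E11.5.

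The machinery that makes and uses let-7 changed in both directions in the first window, and the members that passed in the last were lower. Of 15 genes for microRNA processing and silencing, 3 were lower, 6 higher and 6 did not pass at E10.5 against E8.5, where 21.3% of tested genes were lower and 28.2% higher, so the lower ones were near the share over all genes. At E12.5 against E10.5, 4 were lower, 1 higher and 10 did not pass (17.2% lower and 18.8% higher over all). At E14.5 against E12.5, 8 were lower, 0 higher and 7 did not pass (28.6% lower and 25.3% higher over all). The medians were 0.19, -0.22 and -0.36, against 0.09, 0.03 and -0.03 over all tested genes. Drosha, the nuclease that cuts primary microRNAs, was lower in all 3 windows, by -0.41, -0.51 and -1.08. Xpo5, the exporter of the precursors, was lower by -0.50, -0.36 and -0.89. Argonaute genes, whose proteins carry microRNAs, moved apart. Ago4 had 11.8 ± 0.896 CPM at E10.5 and 1.61 ± 0.535 CPM at E8.5 (log2 2.86 ± 0.19, edgeR adjusted p = 1.49e-13), and Ago1 was higher by 1.26 in that window but lower by -1.96 at E14.5 against E12.5. Ago3 was higher by 0.91 in the first window, and Ago2 was lower in the later ones, by -0.63 and -0.65. Tnrc6b, a partner of the Argonautes in silencing, was higher by 1.08 at E10.5 against E8.5. Dicer1, which cuts the precursors, was lower by -0.69 at E14.5 against E12.5, and Tarbp2, its partner, by -0.46 at E12.5 against E10.5.

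Of the 4 genes for uridylation and decay of let-7 precursors, Tut4 and Dis3l2, the uridylating enzyme that works with LIN28A and the nuclease that degrades the uridylated precursor, were higher at E10.5 than at E8.5, by 0.39 and 0.30. Both were lower at E14.5 than at E12.5, by -0.44 and -0.76. Tent2 was lower by -0.28 at E12.5 against E10.5 and higher by 0.25 in the last window, and Tut7 passed in none of the 3.

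Among other described let-7 targets, more were lower than higher in each window. Of 28, 10 were lower, 6 higher and 12 did not pass at E10.5 against E8.5 (21.3% of tested genes lower and 28.2% higher). At E12.5 against E10.5, 16 were lower and 2 higher (17.2% and 18.8% over all), and at E14.5 against E12.5, 20 were lower and 3 higher (28.6% and 25.3% over all). The medians were 0.00, -0.44 and -0.50 on the log2 scale. This list, like the other gene lists, was chosen with earlier results of these data known, so its counts and medians are no independent evidence. Prtg, a cell surface protein of the early embryo, and Nr6a1, the nuclear receptor GCNF, had the largest falls of the list in the first window. Prtg had 97.9 ± 4.41 CPM at E10.5 and 952 ± 31.8 CPM at E8.5 (log2 -3.28 ± 0.11, edgeR adjusted p = 6.48e-20), and 14.55 ± 0.942 CPM at E12.5. Nr6a1 had 39.2 ± 1.45 CPM at E10.5 and 378 ± 4.20 CPM at E8.5 (log2 -3.27 ± 0.09, edgeR adjusted p = 1.57e-22), and 8.57 ± 0.668 CPM at E12.5. Nr6a1 held CTACCTC 8 times in its 3′ UTR, the most of the list.

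Hmga1, the relative of Hmga2, was lower in all 3 windows, by -1.18, -1.96 and -0.74, though near-identical copies of it in the genome make its counts uncertain. Arid3b, a DNA-binding protein, was lower by -1.12, -1.50 and -1.12. Dusp9, a phosphatase of MAP kinases, was lower by -2.55 at E12.5 against E10.5. The Myc genes parted. Myc was lower by -2.27 at E10.5 against E8.5 and higher by 1.08 at E14.5 against E12.5, and Mycn was lower by -2.73 in that last window, as was Ccnd2, a D-type cyclin, by -1.52. Acvr1c, an activin receptor, had 0 counts at E8.5 and was higher in the first 2 windows, at 0.37 CPM at E10.5 and 1.02 CPM at E12.5, and lower by -1.65 in the last.

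The targets were also split by the 3′ UTR search. The 18 with CTACCTC had medians of -0.11, -0.71 and -0.50 in the 3 windows, and the 10 without it 0.10, -0.22 and -0.40. Outside the 7 genes and the lists, among 3′ UTRs of 1000 to 4000 bases, the 332 genes with CTACCTCA had medians of 0.14, -0.03 and -0.06 and the 5745 genes with no let-7 match 0.09, 0.00 and -0.04. The UTRs with CTACCTCA had a median length of 2192 bases and those without a match 1816 bases.

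Of 8 mRNAs described as bound by IGF2BP proteins, 5 were lower and 1 higher at E10.5 against E8.5 (21.3% of tested genes lower and 28.2% higher). At E12.5 against E10.5, 1 was lower and 1 higher (17.2% and 18.8% over all), no more than over all genes, and at E14.5 against E12.5, 2 were lower and 5 higher (28.6% and 25.3% over all). The 5 that were higher in the last window were Cd44, an adhesion receptor (2.68), Ptgs2, a prostaglandin synthase at few counts (2.46), H19, a noncoding RNA (2.11), Igf2, the growth factor (1.85), and Myc. H19 had 6236 ± 331 CPM at E14.5 and 1445 ± 94.0 CPM at E12.5. Igf2 had 204 ± 9.06 CPM at E14.5 and 56.6 ± 4.30 CPM at E12.5. All 3 Igf2bp genes were lower in that window. At E10.5 against E8.5 Myc, Ptgs2 (-2.47) and Cd44 (-0.85) were among the lower ones and Btrc, part of a ubiquitin ligase, was the higher one (0.51). At E12.5 against E10.5 Actb, a cytoskeletal actin, was lower by -0.40 and Cd44 higher by 0.44.

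The genes most like each of the 7 over the 33 libraries were found by Pearson's r of log2 CPM among 12925 genes, as a description in which the stages shared by all libraries set most of the likeness. Lin28a was closest to Slc25a13, the aspartate and glutamate carrier of mitochondria (r = 0.987), Scd1, a fatty acid desaturase (0.986), and Me2, a malic enzyme (0.985). Trim71 was closest to Zfp280b (0.987), Scd1 (0.987) and Fignl2 (0.986), and Lin28b to Ipo11, an import receptor (0.983), Pde3b, a phosphodiesterase (0.982), and Arid3b (0.982). Hmga2 was closest to Jpt2 (0.983), Cdc6, a replication licensing factor (0.982), and Lbr, the lamin B receptor (0.979). Igf2bp1 was closest to Arid3b (0.988), Zfp280b (0.987) and Pde3b (0.984), Igf2bp2 to Mcmbp, Hyou1 and Kpnb1 (0.983 to 0.980), and Igf2bp3 to Scaf11, Zfp280b and Bend4 (0.987 to 0.979). Between the 7 themselves r ran from 0.932 (Hmga2 and Igf2bp3) to 0.990 (Lin28a and Trim71).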

How the data were processed

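The authors deposited raw counts per gene for each library, per the file headers, with gene lengths over exons. Per the submitters' processing notes, cutadapt 1.9.1, HISAT2 2.0.1, HTSeq 0.6.1 and GRCm38 were used. Neither the annotation release nor the strand setting is given in the sources used here. Columns were tied to stages by name, and the letters that end their names serve only as names. The 7 genes and the gene lists were chosen with earlier results of these data known. Symbols came from GENCODE M21, and older or other names from RefSeq synonyms.

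Counts of 20073 genes that passed edgeR's filter were fitted in edgeR 4.0.16 (R 4.3.3) with TMM factors, a mean per stage over 33 libraries and 22 residual degrees of freedom. Standard errors are approximate (the absolute log2 fold change over the root of F). Log2 CPM used a prior count of 2. From each list the rule named the passing members with the largest changes in a window, up to 4, and members at 0. Tut7, the overlapping genes and the hosts found by position (Spaca6, D630033A02Rik, 6720427I07Rik and Gm49317) were named outside that rule, after their values were seen. The edgeR comparison of E10.5 with E8.5 was also run on simulated counts, with the spread taken from the fit of these data. No 2 libraries of a stage were identical, and the lowest chi-square per gene over 33 such pairs was 1.85. Alternatives were DESeq2 1.42.0, other scalings and filters, a gene length trend, a replicate block and leaving out libraries.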

Additional observations from a re-analysis of the deposited data

How the results depend on the processing

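All 7 genes stayed lower in each of the 4 main comparisons in every alternative run, except that 6 were at E10.5 against E8.5 with totals alone and at E14.5 against E12.5 with only the libraries compared or without 1 library (6 to 7 over the 33 left out in turn). Of 4382 alternatives of a single gene in a comparison or step, passing or not, 4218 kept direction and call, 89 lost the call, 42 gained one and 33 changed sign. Every change of sign was in a step between neighbouring stages. At E12 against E11.5, Igf2bp1 (0.066 as reported) was -0.023 with DESeq2's size factors, -0.30 with totals alone, -0.014 with no filter, -0.033 with the stricter filter and -0.023 with DESeq2, and Igf2bp3 (0.077) was -0.015, -0.28, -0.00047, -0.023 and -0.016 in the same order. With totals alone Lin28b was -0.14 and Igf2bp2 -0.083 in that step, and Lin28b was 0.074 at E9.5 against E9 (-0.0076 as reported). At E14.5 against E13.5, Igf2bp1 (-0.054) was 0.0074 with DESeq2's size factors, 0.088 with totals alone, 0.028 with the stricter filter and 0.0071 with DESeq2. With the gene length trend removed, Hmga2 was -0.012 at E9 against E8.5. At E12.5 against E12 Lin28b was then -0.41, Hmga2 -0.0020, Igf2bp1 -0.040, Igf2bp2 -0.095, Igf2bp3 -0.16 and Trim71 -0.44. Of these, Lin28b (edgeR adjusted p = 0.000714) and Trim71 (edgeR adjusted p = 0.0161) passed as lower. In that step Lin28b (0.35, edgeR adjusted p = 0.00514) and Igf2bp3 (0.48, edgeR adjusted p = 0.0199) passed as higher with totals alone. With 1 library left out, the sign depended on the library for Lin28b at E9.5 against E9 (-0.0415 to 0.048, positive without c of E9.5), for Igf2bp1 (-0.16 to 0.14) and Igf2bp3 (-0.22 to 0.21) at E12 against E11.5 (negative without c of E12), for Trim71 at E12.5 against E12 (-0.13 to 0.52, negative without a or b of E12 or b of E12.5), and for Igf2bp1 (-0.22 to 0.039, positive without a or b of E13.5) and Igf2bp3 (-0.38 to 0.00078, positive without b of E13.5) at E14.5 against E13.5. Igf2bp2 stayed below 0.5 of its E8.5 mean from 5 days after E8.5 with totals alone, in place of 2.5 days, and Lin28b and Trim71 from 2 days without the E10 libraries, in place of 1.5. Over all list genes, 29 (in place of 17) were lower and 10 (in place of 17) higher at E10.5 against E8.5 with the gene length trend removed. List genes higher at E12.5 against E10.5 numbered 6, but 13 without the libraries labelled E11.5, E12 or E13.5 and 12 with only the libraries compared. The cause was not tested in any of these cases. Totals alone moved the median log2 fold change of all genes by 0.17, 0.12 and 0.14 in the 3 windows and by -0.37 at E12 against E11.5, and the share of calls that were higher to 72.5%, 68.3% and 58.3%, against 57%, 52.2% and 46.9% with TMM. The gene length trend moved the first window's median by -0.17 and its share to 40.4%. With the replicate block by column letter, 7 genes were lower in each main comparison, and Igf2bp2 at E9 against E8.5 (0.25, edgeR adjusted p = 0.0558) and Hmga2 at E9.5 against E9 (-0.31, edgeR adjusted p = 0.0502) lost their calls. Same letters did not deviate together (median r -0.0031 over 165 pairs, from -0.58 to 0.18), so the block pairs no samples. Levels of Lin28a from E11.5 on rest on few counts, and small differences there were not detectable at this depth.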
